A study of Drosophila melanogaster with 72 samples.

Results

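Mitochondrial ribosomal protein genes were taken as every gene of the deposited Drosophila melanogaster table whose symbol starts with mRpL or mRpS followed by a number, which gave 72 of 13557 genes. By the letter of the symbol alone, 46 were assigned to the large subunit (L) and 26 to the small subunit (S). Subunit names below follow the symbol, and the place of each protein in the ribosome was not checked. In all, 42 carry numbers shared with the bacterial ribosome and 30 carry the higher numbers given to proteins found only in mitochondria. All 72 passed the filter on low values in every fit.

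The mitochondrial ribosome sits in the matrix and translates the few messenger RNAs of mitochondrial DNA, whose products are core membrane subunits of the respiratory chain and of ATP synthase. Its ribosomal RNAs come from mitochondrial DNA, but all of its proteins are encoded in the nucleus, made in the cytosol and imported. The large subunit holds the peptidyl transferase centre and the exit tunnel, and the small subunit decodes the message.

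The study asked what mutant huntingtin (mHTT), the protein with an expanded polyglutamine tract that causes Huntington's disease, does to gene expression over time in flies. RNA was sequenced from whole heads, 50 per library, in 4 models formed by 2 drivers and 2 forms of mHTT. The mHTT flies carried 1 copy of the driver and 1 copy of the insert, and their age-matched controls carried 1 copy of the driver alone, so every fly of the study carried a GAL4 driver. The labels do not say whether the 3 libraries of a group came from separate rearings, so p-values measure the spread between these libraries.

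The glial N-terminal model was repo-GAL4/+; UAS-HTTNT231Q128/+ at 5, 7 and 8 days and 28 °C, against repo-GAL4/+ flies of the same ages. The glial full-length model was repo-GAL4/+; UAS-HTTFLQ200/+ at 18, 20 and 22 days and 28 °C, against repo-GAL4/+. The neuronal N-terminal model was elav-GAL4/+; UAS-HTTNT231Q128/+ at 7, 9 and 11 days and 28 °C, against elav-GAL4/+. The neuronal full-length model was elav-GAL4/+; UAS-HTTFLQ200/+ at 18, 20 and 22 days and 29 °C, against elav-GAL4/+ at 29 °C. The repo driver acts in glia and the elav driver in neurons, but the RNA is that of all cells of the head, so a smaller number of cells of a type and less RNA per cell cannot be told apart. The form of mHTT and age change together, and for the neuronal driver temperature changes with them. Each age had 3 mHTT and 3 control libraries, which made 18 libraries per model and 72 in all. For mHTT libraries of the neuronal full-length model, titles name days 7, 9 and 11, but every other label (age, description, growth) gives days 18, 20 and 22, and these were used.

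Values are normalized signal, the authors' gene estimates scaled so that the upper quartile of every library is 1000, and they are proportional to reads rather than to transcripts. Depth was estimated at 34.9 to 46.7 M reads per library, and the least abundant member had an estimated 137 reads in its lowest library. Changes are differences of log2(value + 1), mHTT minus control. A gene was called when its Benjamini-Hochberg adjusted p from limma, over all genes tested in the fit, was under 0.05.

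Mitochondrial ribosomal protein transcripts are short. The median length of the longest annotated transcript was 778.5 bases over the 72 members (range 327 to 2078), against 1734 bases over all 13095 genes with a length. This matters because 2 libraries were set apart for a trend with length. In the second control library of the neuronal driver at day 11, the members averaged 1.93 log2 units above the other 2 libraries of their group, and 71 of 72 were above. The deviation of all genes in that library fell by 1.04 log2 units per doubling of transcript length. In the first glial N-terminal mHTT library of day 7, the members averaged 0.72 log2 units above the other 2 libraries, again 71 of 72 above, and the deviation of all genes fell by 0.35 log2 units per doubling of length. The 66 libraries outside these 2 groups had member deviations between −0.13 and 0.22 log2 units and length slopes between −0.30 and 0.16. The lowest of these slopes were those of the first neuronal full-length mHTT library (−0.30) and the first glial control library (−0.17) of day 22. Both were kept in the 70. The 2 libraries set apart are not in the full-length models, whose own fits are thus the same with the 70. The members' summed signal was 0.305% of all signal in the day 11 control library and 0.148% to 0.217% in the 70 libraries outside the pair. Most comparisons are therefore given with all 72 libraries and again with the 70.

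**Figure D1:**
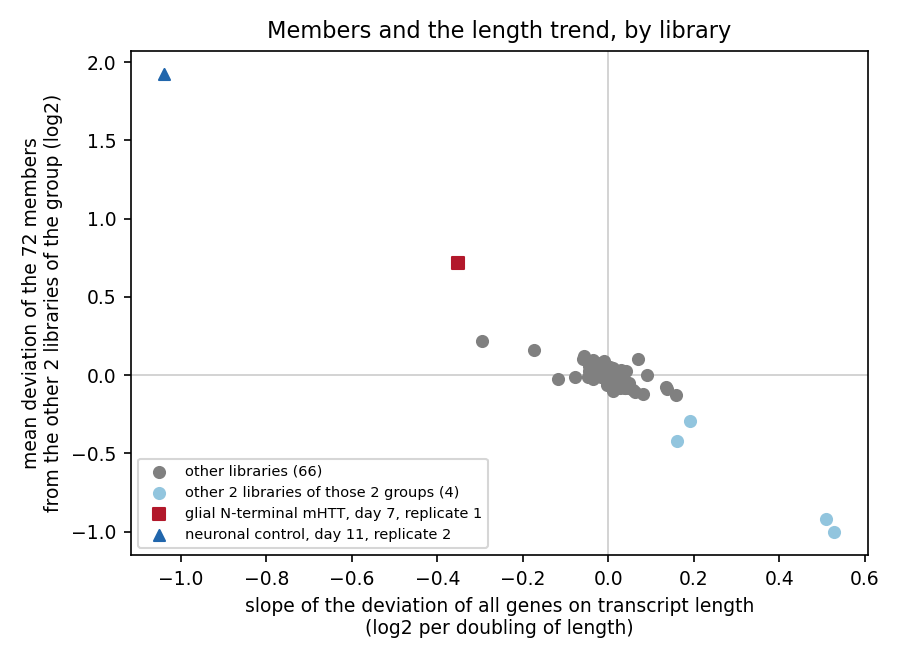
Mean log2 deviation of the 72 members from the other 2 libraries of the group (vertical axis) against the slope of the deviation of all genes on transcript length (horizontal axis), 1 point per library. The neuronal control library of day 11 (1.93, slope −1.04) and the glial N-terminal mHTT library of day 7 (0.72, slope −0.35) lie at the upper left, and the other 2 libraries of the same groups lie at the lower right because their deviations are taken against these.

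Levels differed more between members than between samples. Per kilobase of the longest transcript, mRpS5 was the most abundant member in controls, at 2493 signal per kb (3545 ± 369 signal, SD, n = 35 control libraries). Its bacterial counterpart is a small subunit protein known for its part in decoding accuracy. The next members were mRpS9 at 909, mRpL28 at 904, mRpL24 at 861 and mRpL33 at 845 signal per kb, which lie close together. The lowest were mRpL21 at 153 and mRpS14 at 170 signal per kb, and the median member had 429 signal per kb. The median was 423 over the large subunit and 474 over the small subunit.

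Across the 70 libraries the members varied little. Their coefficients of variation ran from 6.87% (mRpL24) to 20.8% (mRpS14) with a median of 9.16%. The median over all 10976 genes tested was 17%, and 71 of 72 members lay below it. Because precision depends on level, the members were also set beside 2579 other genes of like level (239 to 660 signal). Those had a median of 13.7%, and 68 of 72 members lay below it. After mRpS14, the most variable members were mRpL12 (15.8%), the stalk protein that binds translation factors, mRpL16 (15.4%) and mRpS31 (15.3%). In all 4 models mRpS14 and mRpL12 had overlapping mHTT and control libraries and were not called over the ages.

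mRpS31, a mitochondria-specific protein of the small subunit, was lower in mHTT heads than in controls in 3 of the 4 models, at every age, with no overlap between libraries. In glial full-length heads at day 18 it had 480.2, 452.7 and 473.3 signal in mHTT, against 702.4, 677.6 and 722.8 in controls. At day 20 it had 523.2, 518.2 and 541.6 in mHTT, against 681.1, 730.2 and 694.6 in controls. At day 22 it had 544.4, 512.1 and 516.4 in mHTT, against 706.4, 760.8 and 752.8 in controls. Every glial full-length mHTT library was thus below every control library of that model. Over the 3 ages mRpS31 averaged 507 ± 31.4 in mHTT and 714 ± 29.6 in controls (SD, n = 9 each), a change of −0.50 (SE 0.0322, adjusted p = 3.44e-09). It was called at each age, with changes of −0.58, −0.41 and −0.50 at days 18, 20 and 22.

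In neuronal N-terminal heads at day 7 mRpS31 had 633.8, 677.6 and 673.2 signal in mHTT, against 871.1, 822.2 and 858.0 in controls. At day 9 it had 622.3, 651.5 and 627.4 in mHTT, against 808.8, 784.4 and 854.2 in controls. At day 11 it had 616.2, 610.3 and 664.8 in mHTT, against 770.2, 2489.3 and 784.6 in controls. The 9 mHTT libraries were again all below the 9 controls, and the control value of 2489.3 is that of the library with the length trend. With all libraries the change was −0.53 (SE 0.178, adjusted p = 0.0659), which was not called. With the 70 libraries it was −0.34 (SE 0.0313, adjusted p = 6.44e-07), and mRpS31 was called at each age, with changes of −0.36, −0.36 and −0.30.

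In neuronal full-length heads at day 18 mRpS31 had 626.5, 653.6 and 634.9 signal in mHTT, against 725.2, 722.7 and 769.8 in controls. At day 20 it had 760.6, 698.2 and 683.2 in mHTT, against 848.4, 825.3 and 832.4 in controls. At day 22 it had 696.0, 685.6 and 685.9 in mHTT, against 784.5, 811.1 and 785.7 in controls. Libraries did not overlap within an age, although the highest mHTT value of day 20 exceeded control values of day 18. The change over the ages was −0.21 (SE 0.0306, adjusted p = 0.000214), and each age was called. With all 72 libraries in 1 fit the change over the ages was not called (adjusted p = 0.162).

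In glial N-terminal heads the difference was smaller. At day 5 mRpS31 had 812.3, 873.2 and 728.8 signal in mHTT, against 879.4, 881.3 and 899.1 in controls. At day 7 it had 997.6, 708.6 and 701.001 in mHTT, against 853.2, 782.3 and 815.2 in controls, the 997.6 being the library with the length trend. At day 8 it had 769.9, 795.9 and 740.3 in mHTT, against 839.7, 775.8 and 736.7 in controls. Libraries overlapped at days 7 and 8. The change was −0.07 (adjusted p = 0.432) with all libraries and −0.13 (adjusted p = 0.0193) with the 70.

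Counted over the 12 combinations of model and age, all 3 mHTT libraries lay below all 3 controls at 10 for mRpS31, and no other member reached more than 6 (mRpS22). Of the 10976 genes tested, 25 (0.228%) lay below at 10 or more. The 12 ages do not share control libraries. A test of the difference between models put the glial N-terminal change above the glial full-length change by 0.42 (SE 0.141, adjusted p = 0.0178), and by 0.37 with the 70 libraries (adjusted p = 2.40e-10). The neuronal full-length change was, with the 70 libraries, above the glial full-length change by 0.28 (adjusted p = 1.61e-07), and the neuronal N-terminal change was below the neuronal full-length change by 0.13 (adjusted p = 0.0198). Neither was called with all libraries. The neuronal N-terminal change was below the glial N-terminal change by 0.46 with all libraries (adjusted p = 0.0106) and by 0.22 with the 70 (adjusted p = 5.54e-05). The size of the mRpS31 change did not differ detectably between ages in any model (adjusted p between 0.522 and 0.978 over the fits with all libraries and with the 70).

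In all, 41 of the 72 members overlap a gene on the other strand. They include mRpL44 (POLDIP2), mRpL18 (ox), mRpS9 (ArgRS-m and wtrw), mRpL32 (CG1750), mRpS22 (Boh1) and mRpL53 (AGO1). mRpL53 also overlaps CG33155 on its own strand. The part of these neighbours in the member values was not tested. mRpS31 overlaps mib1, an E3 ubiquitin ligase gene of the other strand, and whether the counting used strand is not given in the sources used here. On the 70 libraries, mib1 changed by 0.04 in glial full-length heads (adjusted p = 0.492), by −0.11 in neuronal N-terminal heads (adjusted p = 0.00950), by 0.09 in neuronal full-length heads (adjusted p = 0.162) and by 0.14 in glial N-terminal heads (adjusted p = 0.00953). Both genes were thus lower in neuronal N-terminal heads, in glial N-terminal heads mib1 was higher and mRpS31 lower, and in the full-length models only mRpS31 was called. The part of mib1 reads in the mRpS31 values was not tested.

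**Figure D2:**
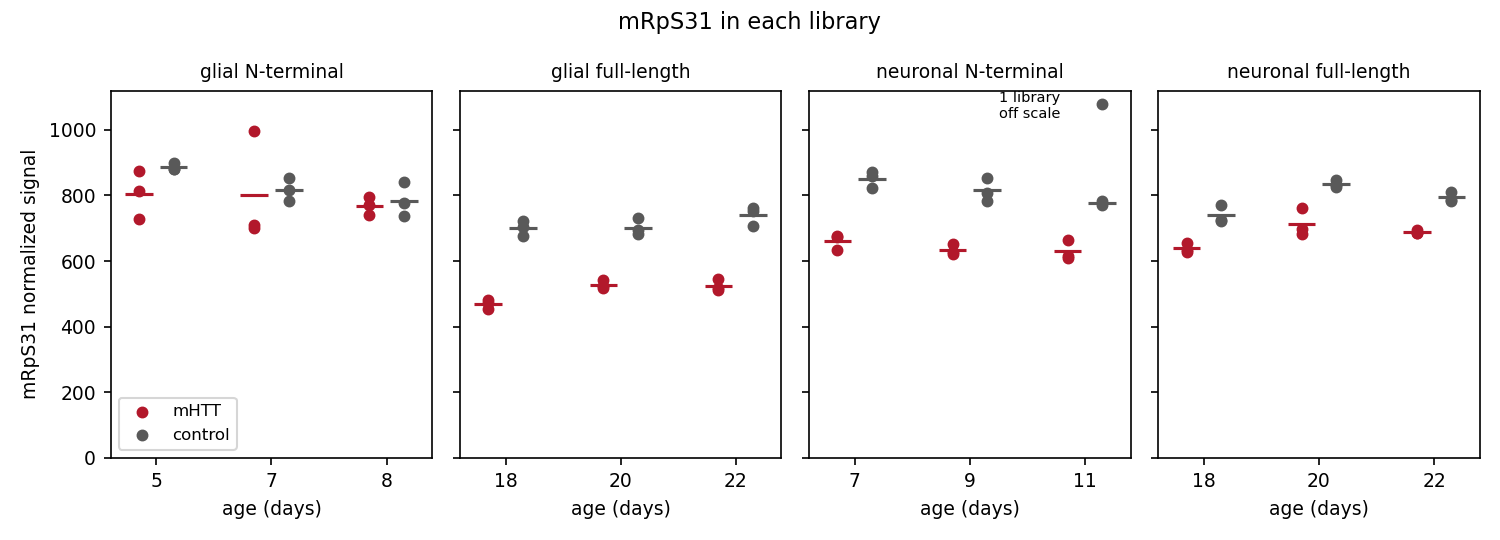
Normalized signal of mRpS31 in each library by age in days, with 1 panel per model and mHTT (red) left of control (grey); bars are means. In the glial full-length panel mHTT libraries lie between 452.7 and 544.4 and controls between 677.6 and 760.8, and the neuronal panels show the same order at each age. The control library of day 11 with 2489.3 signal is drawn at the top edge as off scale and left out of its mean.

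With glial full-length mHTT 6 members rose and 3 fell over the ages, 12.5% of the 72, where 44.4% of all genes tested were called (19.3% higher and 25.1% lower), and the median change was 0.01, against −0.04 over all genes. The balance depended on the scaling, with 10 higher and 3 lower under median-ratio rescaling but 4 higher and 9 lower under a length correction. As a share of all signal the members were lower in mHTT, with no overlap between libraries at any age. Their summed signal averaged 0.153%, 0.151% and 0.151% in mHTT at days 18, 20 and 22, against 0.165%, 0.168% and 0.173% in controls. Among genes whose length lay between the 10th and 90th percentile of the members, 43.2% were called and the median was 0.03. Without the first control library of day 22, which had a length slope of −0.17, 13 members were called over the ages. The members that rose were mRpL35, mRpS35, mRpL50, mRpL39, mRpL33 and mRpS7, and those that fell were mRpS31, mRpL44 and mRpS5.

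mRpS35, a mitochondria-specific small subunit protein, had a lowest, median and highest signal of 440.5, 470.8 and 496.4 in glial full-length mHTT, against 340.8, 387.7 and 434.4 in controls. The 9 mHTT libraries did not overlap the 9 controls, and the change was 0.27 (SE 0.0404, adjusted p = 4.43e-05). mRpL35, a large subunit protein with a bacterial counterpart, had 323.1, 334.2 and 348.6 in mHTT, against 237.1, 278.0 and 307.3 in controls. These too did not overlap, with a change of 0.28 (SE 0.0481, adjusted p = 0.000150). CG6028, which overlaps mRpL35 on the other strand at a mean of 1185 signal, rose by 0.59 (adjusted p = 4.00e-08), and its part in the mRpL35 value was not tested.

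mRpL50, mitochondria-specific and in the large subunit, had 329.4, 363.8 and 403.4 in glial full-length mHTT, against 274.9, 305.7 and 356.4 in controls, with a change of 0.23 (SE 0.0407, adjusted p = 0.000242). Of the 9 mHTT libraries, 5 lay above all 9 controls. Its antisense neighbour Neos changed by less than 0.01 log2 units (adjusted p = 0.999). mRpL44, a large subunit protein with a double-stranded RNA-binding domain in other animals, had 318.7, 344.7 and 419.1 in mHTT, against 355.0, 406.5 and 425.2 in controls, and fell by 0.18 (adjusted p = 0.00861). The abundant mRpS5 had 2776, 3176 and 3756 in mHTT, against 2697, 3652 and 4217 in controls, and fell by 0.17 (adjusted p = 0.0212). For mRpL44 and mRpS5 the libraries overlapped. With all 72 libraries in 1 fit the changes of mRpS35, mRpL50, mRpL44 and mRpS5 were not called (adjusted p = 0.255, 0.0924, 0.424 and 0.630). With the prefix of the library labels as a covariate mRpS5 fell by 0.11 and was not called (adjusted p = 0.0854).

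By age, 5 members were higher and 1 lower at day 18 (20.2% of all genes called), 0 higher and 2 lower at day 20 (20.4%), and 4 higher and 3 lower at day 22 (31.5%). No member's change differed between ages (0.864% of all genes called).

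The glial full-length heads also differed in markers of other cell types. All 6 fat body markers tested were higher, with a median change of 1.54, and the summed signal of the 7 listed ran from 1124804 to 2275235 in mHTT, against 341281 to 739276 in controls. All 8 gut markers were lower, with a median of −3.10 and sums of 79.9 to 872 in mHTT, against 855 to 83872 in controls. Of 10 glial markers 7 were lower and 1 higher, with sums of 27915 to 33539 in mHTT, against 30414 to 40223 in controls. No marker of these lists was at 0 in all libraries of either group. Their part in the changes of the members was not tested.

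With neuronal N-terminal mHTT 69 of 72 members had changes below 0 with the 70 libraries, and the size of the changes depended on the day 11 control library. The share of all genes below 0 is not given here. As a share of all signal, with the 70 libraries, the order was the reverse. The members' summed signal averaged 0.166%, 0.172% and 0.168% in mHTT at days 7, 9 and 11, against 0.163%, 0.163% and 0.165% in controls. The lower values are thus those on the upper-quartile scale used here. With all libraries 1 member fell and 0 rose, where 13.6% of all genes were called (6.03% higher and 7.53% lower), and the median change was −0.33 against 0.01 over all genes. The 70 libraries gave 23 that fell and 1 that rose. Among all genes 36.8% were then called and 19% were called lower (17.8% higher). The members' median change was −0.11, against 0.00 over all genes and −0.04 over genes of like length, of which 37.8% were called and 517 of 2180 called lower. The lower members were 13 of the large and 10 of the small subunit by symbol.

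mRpS30 was the member called with all libraries. It had a lowest, median and highest signal of 858.5, 914.3 and 991.2 in neuronal N-terminal mHTT, against 966.5, 1000 and 1128 in controls, and fell by 0.14 (SE 0.0429, adjusted p = 0.0390). The libraries overlapped narrowly. The call was lost when any of 13 of the 18 libraries was left out, with adjusted p up to 0.0876, as it was under median-ratio rescaling (0.0515) and with the replicate block (0.0565), but it held with the 70 libraries (−0.13, adjusted p = 0.00499).

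The members named next were chosen after their values were seen, from the fit to the 70 libraries. mRpS35 had 356.7, 396.5 and 449.6 in neuronal N-terminal mHTT, against 446.8, 509.2 and 556.2 in controls, and fell by 0.35 (SE 0.0514, adjusted p = 7.18e-05). Only the extremes of the groups overlapped. mRpL32, a large subunit protein whose maturation by a membrane protease is known from yeast, had 217.8, 258.4 and 308.2 in mHTT, against 289.0, 300.1 and 341.2 in controls, and fell by 0.25 (adjusted p = 0.00308). mRpS7, which in bacteria binds the head of the small subunit RNA, had 577.5, 615.2 and 655.2 in mHTT, against 656.5, 689.3 and 752.7 in controls, with no overlap, and fell by 0.17 (adjusted p = 0.000399). mRpS26 fell by 0.21 and mRpL36 by 0.19. The others of the 23, mRpS31 aside, fell by 0.12 to 0.17, and the 1 that rose was mRpL53, by 0.15 (adjusted p = 0.0340).

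mRpS5 behaved unlike the rest in the day 11 control library. It had 278.8 signal there, against 3736.8 and 3971.7 in the other 2 controls of day 11, while nearly all other members were higher there. Its change was 0.38 (adjusted p = 0.515) with all libraries and −0.04 (adjusted p = 0.613) with the 70.

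By age and with all libraries, 0 members were called at day 7 (1.98% of all genes called), 0 at day 9 (4.32%) and 1 at day 11 (7.77%), the last being mRpS30, lower. The median change was −0.08 at day 7, −0.07 at day 9 and −0.86 at day 11. With the 70 libraries 2, 6 and 11 members were lower at days 7, 9 and 11 (14.2%, 23.8% and 18.6% of all genes called), and 0 were higher. Of all 10127 genes 675, 1166 and 1044 were called lower at these ages. The day 11 median of the members was −0.15. The test of a difference between ages called 0 members with all libraries (0.00984% of all genes) and 0 with the 70 (3.68%). At an unadjusted p under 0.05 it passed 0 members with all libraries and 7 with the 70. The share of all genes at that threshold is not given here, so the 7 cannot be set against it.

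Photoreceptor and fat body markers were also lower in neuronal N-terminal heads. With the 70 libraries 9 of 12 photoreceptor markers were lower, and their summed signal ran from 1017254 to 1240461 in mHTT, against 1511713 to 1787575 in controls, with no overlap. Of 6 fat body markers tested 5 were lower and 1 higher, with sums of 704052 to 1494310 in mHTT, against 1125863 to 1745787 in controls. No photoreceptor or fat body marker was at 0 in all libraries of a group. Their part in the lower member values was not tested.

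In glial N-terminal heads few members differed, and mRpL4 stood out. With all libraries 1 rose and 1 fell, where 32.5% of all genes were called (20.4% higher and 12.1% lower), and the median change was 0.08 against 0.06 over all genes and 0.12 over genes of like length. The 70 libraries gave 2 that rose and 4 that fell (40.2% of all genes called, 25.2% higher and 15% lower), and the median was −0.01.

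mRpL4, whose bacterial counterpart lines the exit tunnel of the large subunit, had 378.9, 413.2 and 384.9 signal in glial N-terminal mHTT at day 5, against 455.7, 423.6 and 418.9 in controls. At day 7 it had 566.0, 342.7 and 363.9 in mHTT, against 498.6, 477.7 and 527.1 in controls. At day 8 it had 379.2, 354.3 and 342.4 in mHTT, against 484.0, 503.0 and 453.4 in controls. The value of 566.0 is that of the library with the length trend, and the other 8 mHTT libraries were below all 9 controls. The change was −0.28 (SE 0.0787, adjusted p = 0.0126) with all libraries and −0.35 (SE 0.0392, adjusted p = 4.94e-06) with the 70. With the 70 libraries it was called at day 7 (−0.50, adjusted p = 0.000185) and day 8 (−0.42, adjusted p = 0.000356) but not at day 5 (−0.14, adjusted p = 0.140). CG4278, which overlaps it on the other strand at a mean of 244 signal, changed by 0.19 (adjusted p = 0.0772). With all 72 libraries in 1 fit the mRpL4 change was not called (adjusted p = 0.0721).

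The same gene fell by less in neuronal N-terminal heads (−0.12, adjusted p = 0.0152 with the 70 libraries) and was not called with either full-length form, at −0.08 in glia and 0.10 in neurons. The difference of the change between glial N-terminal and glial full-length heads was −0.28 (adjusted p = 0.000127 with the 70 libraries). Between neuronal and glial N-terminal heads it was 0.23 (adjusted p = 0.00204 with the 70 libraries). Neither difference was called with all libraries.

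mRpL50, which rose in glial full-length heads, had a lowest, median and highest signal of 299.0, 349.1 and 509.8 in glial N-terminal mHTT, against 272.0, 291.5 and 343.1 in controls. The libraries overlapped, and the change was 0.22 with all libraries (adjusted p = 0.0362) and 0.16 with the 70 (adjusted p = 0.0193). The call with all libraries was lost when any of 12 of the 18 was left out, with adjusted p up to 0.0732. It was also lost under median-ratio rescaling, with the label prefix as a covariate and with all 72 libraries in 1 fit (adjusted p = 0.0901, 0.0516 and 0.118). The others called with the 70 libraries, named after their values were seen, were mRpS17 (0.13), mRpS22 (−0.22), mRpL44 (−0.11) and mRpS31 (−0.13).

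By age and with all libraries, 0, 1 and 0 members were called at days 5, 7 and 8 (13.5%, 17.8% and 10.5% of all genes called), the 1 being mRpL50, higher. With the 70 libraries 5 were higher at day 5 (23.0% of all genes called), 3 lower at day 7 (22.9%) and 3 lower at day 8 (16.9%). Of all 10337 genes 1407 were higher at day 5, 961 lower at day 7 and 758 lower at day 8. The test of a difference between ages called 0 members with all libraries (0.270% of all genes) and 0 with the 70 (1.04%). At an unadjusted p under 0.05 it passed 0 members with all libraries and 11 with the 70. The share of all genes at that threshold is not given here, so the 11 cannot be set against it. Of 10 glial markers 9 were lower in these heads, with sums of 22242 to 24706 in mHTT, against 35706 to 43685 in controls with the 70 libraries, and 10 of 12 photoreceptor markers were higher. No marker of these lists was at 0 in all libraries of a group. Their part in the member values was not tested.

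With neuronal full-length mHTT 0 members rose and 2 fell over the ages, where 18.9% of all genes were called (9.4% higher and 9.54% lower), and the median change was 0.03 against 0.00 over all genes. At an unadjusted p under 0.05, 13 members passed, but the share of all genes at that threshold is not given here. The 2 that fell were mRpS31, described above, and mRpL18, whose bacterial counterpart binds 5S ribosomal RNA. mRpL18 had a lowest, median and highest signal of 248.7, 261.8 and 302.7 in mHTT, against 271.1, 287.1 and 326.2 in controls, and the groups overlapped. Its fall by 0.12 (SE 0.0393, adjusted p = 0.0436) lost its call when any of 15 of the 18 libraries was left out, with adjusted p up to 0.0890. It was also lost without the filter (0.0576), under median-ratio rescaling (0.0559), quantile normalization (0.116) and a length correction (0.134), with the replicate block (0.0669) and with all 72 libraries in 1 fit (0.680), all adjusted p. The highest change was that of mRpL52 (0.13, adjusted p = 0.147) and the lowest that of mRpS14 (−0.23, adjusted p = 0.110), the member with the highest coefficient of variation over the 70 libraries.

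At each of days 18, 20 and 22 mRpS31 was the 1 member called, where 9.20%, 4.14% and 7.65% of all genes were called. The test of a difference between ages called 0 members (0.731% of all genes called). It passed 5 at an unadjusted p under 0.05, again without a share of all genes at that threshold. One mHTT library of day 22, the first, stood apart with a length slope of −0.30 and a mean member deviation of 0.22. Without it 5 members were called over the ages, 1 higher and 4 lower.

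**Figure D3:**
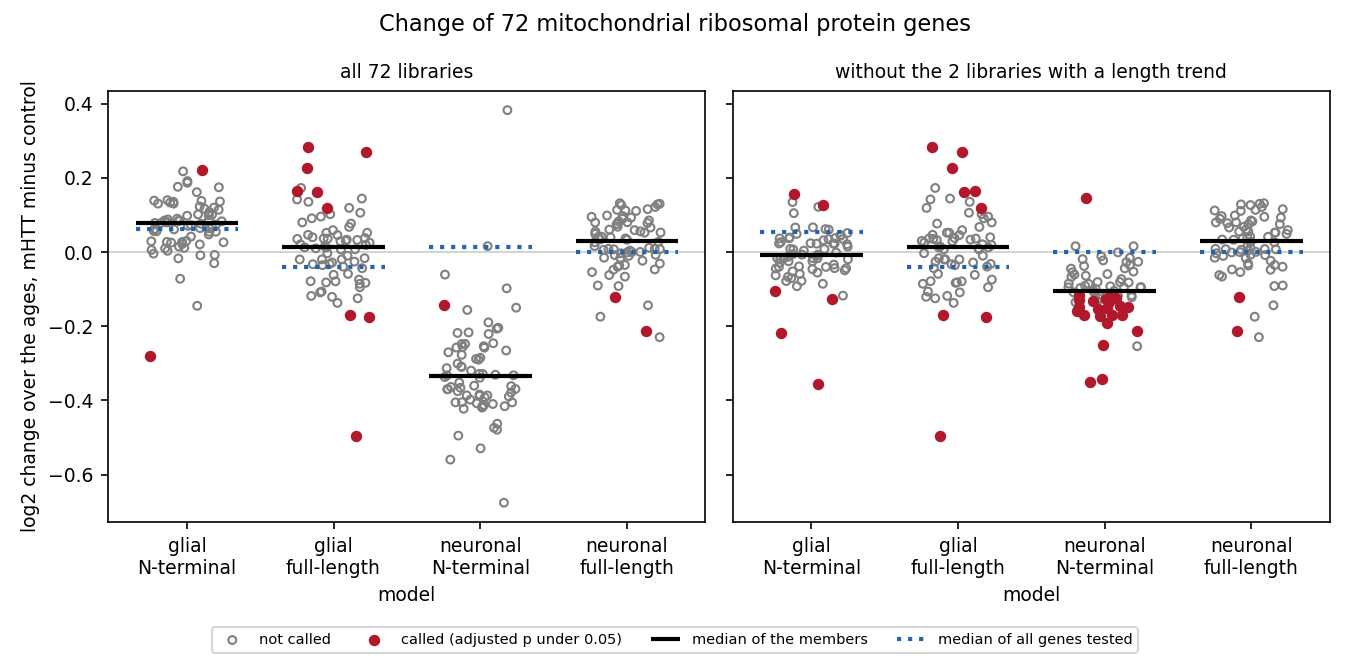
Log2 change over the ages (mHTT minus control) of each of the 72 members in the 4 models, with all 72 libraries (left) and with the 70 (right); filled red points were called, black bars are medians of the members and dotted blue bars medians of all genes tested. The member median of the neuronal N-terminal model is −0.33 on the left and −0.11 on the right, and the lowest called point of the glial full-length model is mRpS31 at −0.50.

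Across the models, 12 members were called in at least 1 with all libraries and 60 in none, where 66.4% of all genes tested in all 4 models were called in at least 1. On the 70 libraries, 29 were called in at least 1 and 43 in none, where 74.4% of all genes were called in at least 1. mRpS31 was then lower in all 4 models, as were 0.44% of all genes. mRpL44 was lower in 3, the glial ones and the neuronal N-terminal one, and 3.58% of all genes were lower in 3 or more, while mRpL50 was higher in both glial models. With all libraries 0 members were lower in 3 or more models, where 2.13% of all genes were, and 0.18% of all genes were lower in all 4. Each model has its own controls.

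With the 70 libraries mRpS35, mRpS7 and mRpS17 were each called higher in 1 model and lower in 1 other. mRpS35 and mRpS7 were higher in glial full-length heads and mRpS17 in glial N-terminal heads, and each was lower in neuronal N-terminal heads. mRpS35 rose by 0.27 and fell by 0.35 there, and it was not called in the other 2 models. Glial full-length and neuronal N-terminal heads were not tested against each other. The mRpS35 change in neuronal N-terminal heads was below the neuronal full-length change by 0.79 with all libraries (adjusted p = 0.0181) and by 0.46 with the 70 (adjusted p = 2.32e-07). It was below the glial N-terminal change by 0.70 with all libraries (adjusted p = 0.0219) and by 0.29 with the 70 (adjusted p = 0.000360). Without the first glial N-terminal library of day 7 alone, the 0.70 was no longer called (adjusted p = 0.0508).

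Between neuronal and glial N-terminal heads 16 members differed with all libraries, all with the lower change in neurons. Of all genes 29.6% differed, with 2044 of 10976 lower, and of genes of like length 36.8% differed, with 762 of 2502 lower. On the 70 libraries, 10 differed, 9 lower and 1 higher (32.1% of all genes, with 2077 of 10945 lower and 1434 higher). Between neuronal and glial full-length heads 0 differed with all libraries (21% of all genes). At an unadjusted p under 0.05 there were also 0, with no share of all genes given. With the 70, 3 were higher and 4 lower (34.9%, with 1993 of 10945 genes higher and 1832 lower). Between N-terminal and full-length in glia 1 differed with all libraries (28.1%). With the 70, 2 were higher and 8 lower (43.0%, with 2806 of 10945 genes higher and 1897 lower). Between N-terminal and full-length in neurons 3 differed with all libraries, all lower in the N-terminal model (15.6%, with 885 of 10976 genes lower). These were mRpS35, mRpS9 (−0.32, adjusted p = 0.0455) and mRpL3 (−0.27, adjusted p = 0.0249). Without the day 11 control library with the length trend the mRpS9 difference was −0.18. The mRpL3 difference without that library is not given here. With the 70, 18 differed, all lower (21.6%, with 1211 of 10945 genes lower). The mRpS9 call was lost in 26 of the 72 fits that left out 1 library.

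**Figure D4:**
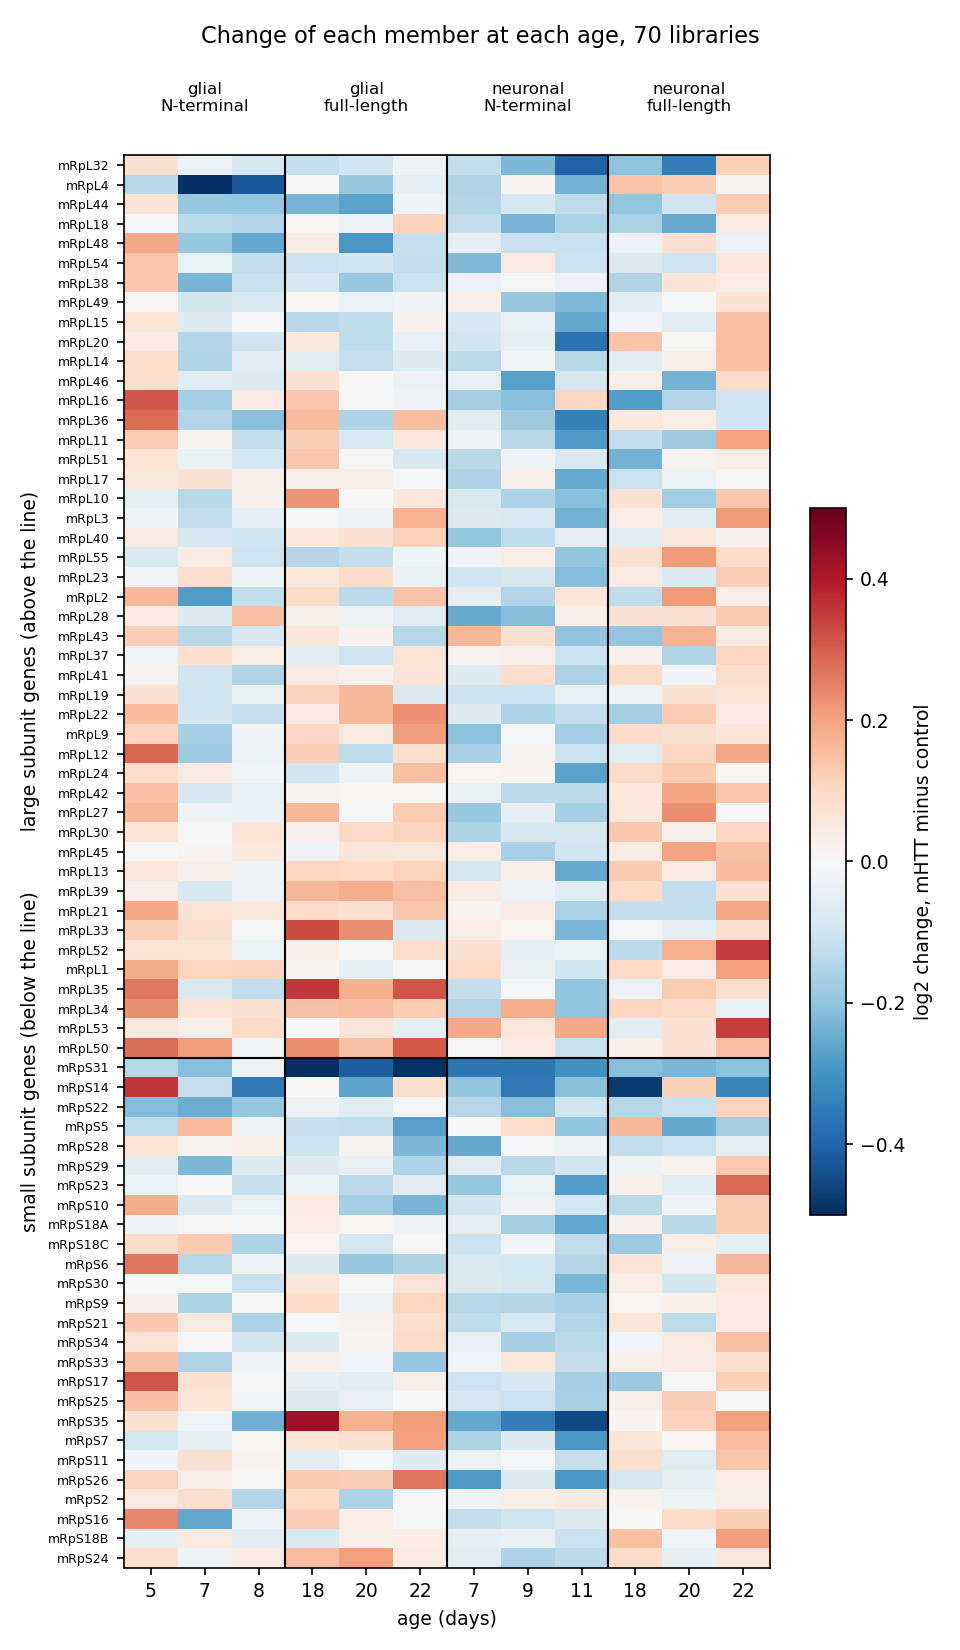
Log2 change (mHTT minus control, colour, clipped at 0.5 in either direction) of each member (rows, large subunit above the line and small subunit below, each ordered by mean change) at each age in days (columns, by model) with the 70 libraries. The mRpS31 row is blue in all 4 models, from −0.58 at day 18 of the glial full-length model to −0.03 for N-terminal mHTT in glia at day 8, and mRpS35 is red in the glial full-length columns and blue in the neuronal N-terminal ones.

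The controls of the full-length models were older (18 to 22 days) than those of the N-terminal models (5 to 8 days with the glial and 7 to 11 days with the neuronal driver). These contrasts use the same control libraries as the mHTT comparisons, so the values are not independent of them. With the glial driver 3 members were lower and 0 higher in older controls with all libraries, where 24% of all genes differed (1108 of 10976 lower). With the 70, 16 were lower and 2 higher, where 38.7% of all genes differed (1763 of 10945 lower). With the neuronal driver, older controls were also kept at 29 °C rather than 28 °C. There 11 were lower and 0 higher with all libraries (28.1%, with 1359 of 10976 genes lower, and 438 of 2502 genes of like length). With the 70, 8 were lower and 2 higher (33.8%, with 1637 of 10945 genes lower). The median change was −0.03 in glial and −0.24 in neuronal controls with all libraries, and 0.01 in neuronal controls with the 70. Without the first glial control library of day 22 alone, the glial median was −0.07.

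mRpS22, a mitochondria-specific small subunit protein, had a lowest, median and highest signal of 581.1, 659.9 and 748.6 in older glial controls, against 728.8, 838.9 and 937.1 in younger ones, a change of −0.33 (adjusted p = 0.0327). The groups barely overlapped. mRpL45 had 521.8, 581.8 and 698.9 in older glial controls, against 646.3, 720.2 and 767.3 in younger ones, a change of −0.28 (adjusted p = 0.0158). In older neuronal controls mRpL45 had 524.8, 576.9 and 669.1, against 631.4, 676.9 and 751.7 in the 8 younger ones without the length trend, a change of −0.21 (adjusted p = 0.00130 with the 70 libraries). mRpS9, whose bacterial counterpart contacts the transfer RNA in the P site, had 1015, 1138 and 1187 in older neuronal controls, against 1215, 1248 and 1412 in the same 8 younger ones, with no overlap and a change of −0.19 (adjusted p = 5.27e-07). In older glial controls mRpS9 had 1002, 1092 and 1151, against 1134, 1241 and 1316 in younger ones, a change of −0.21 (adjusted p = 0.0475 with all libraries).

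The glial and neuronal controls share no library, and with the 70 libraries 7 members were lower in older controls of both drivers, which is 7 of 16 for glia and 7 of 8 for neurons. These were mRpL10, mRpL20, mRpL23, mRpL28, mRpL35, mRpL45 and mRpS9, chosen after their values were seen. Over all 10945 genes tested, 998 were lower in both, of 1763 for glia and 1637 for neurons. With all libraries 2 members, mRpL45 and mRpS9, were lower in both, and among all genes 642 of 1108 and 1359. In the neuronal controls age and temperature cannot be told apart.

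The median change, with the 70 libraries, of the large and small subunit was 0.03 and −0.03 in glial full-length heads, −0.10 and −0.12 in neuronal N-terminal heads, 0.04 and 0.02 in neuronal full-length heads, and −0.01 in both in glial N-terminal heads. Members with bacterial numbers and mitochondria-specific members had medians of −0.11 and −0.10 in neuronal N-terminal heads, with 14 of 42 and 9 of 30 lower. Subgroup medians were not tested against each other.

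The 2 subunits outside the symbol rule, tko and bonsai, were not called over the ages in any of the models. tko, the homologue of bacterial S12 whose mutants are bang-sensitive, had changes between −0.10 and −0.01 with the 70 libraries. bonsai, the homologue of S15, had changes between −0.09 and 0.07. Among the members, mRpS29, the GTP-binding protein known as DAP3 in mammals, was not called and had changes between −0.12 and 0.04. mRpL1, of the L1 stalk, was not called either, at 0.14 in glial N-terminal heads (adjusted p = 0.0656 with the 70 libraries) and between −0.01 and 0.11 elsewhere.

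Other genes of mitochondrial protein synthesis and its products were described by the same fits. Of 35 nuclear subunits of complexes II to V, 24 were called higher and 0 lower in glial full-length heads, with a median change of 0.22, where 19.3% of all genes were called higher. Of genes in the length range of the mitochondrial ribosomal proteins, 634 of 2294 were higher there. Complex I had 15 of 33 higher, 0 lower and a median of 0.13, and cytosolic ribosomal proteins had 58 of 85 higher, 1 lower and a median of 0.23. The mitochondrial ribosomal proteins stood at 6 of 72 higher and 3 lower, with a median of 0.01. In neuronal N-terminal heads with the 70 libraries, 15 of 35, 14 of 33 and 72 of 85 of these lists were lower and 0 higher, with medians of −0.16, −0.14 and −0.28, beside 23 of 72 mitochondrial ribosomal proteins at −0.11 and 19% of all genes called lower. With all libraries 0 genes of those 3 lists were called in that model. Of genes in the length range of the mitochondrial ribosomal proteins, 517 of 2180 were lower in that model with the 70. All these changes are on the upper-quartile scale, and shares of all signal are not given for the lists. The differences between lists were not tested.

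The smaller lists are read against the shares of all genes called lower, which were 25.1% in glial full-length heads and, with the 70 libraries, 19% in neuronal N-terminal heads. Shares called in either direction were 44.4% and 36.8% there, 32.5% in glial N-terminal heads (all libraries) and 18.9% in neuronal full-length heads. Of 12 mitochondrial translation factors and nascent chain factors, 1 was higher and 2 lower in glial full-length heads, 2 higher and 1 lower in glial N-terminal heads (all libraries), 3 higher and 0 lower in neuronal full-length heads, and 0 higher and 3 lower in neuronal N-terminal heads with the 70 libraries. Of 17 mitochondrial aminoacyl-tRNA synthetases, which charge the transfer RNAs, 0 were higher and 3 lower in glial full-length heads, and 1 higher and 5 lower in neuronal N-terminal heads with the 70. Of 9 genes of mitochondrial DNA upkeep and transcription, 0 were higher and 3 lower in each of these 2 models. tam, the catalytic subunit of the mitochondrial DNA polymerase, fell by 0.51 in both glial models (adjusted p = 0.00352 with full-length mHTT and 0.00200 with N-terminal mHTT and the 70 libraries). Of the 12 tested mRNAs encoded in mitochondrial DNA, 0 were called in any of the models with either set of libraries.

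**Figure D5:**
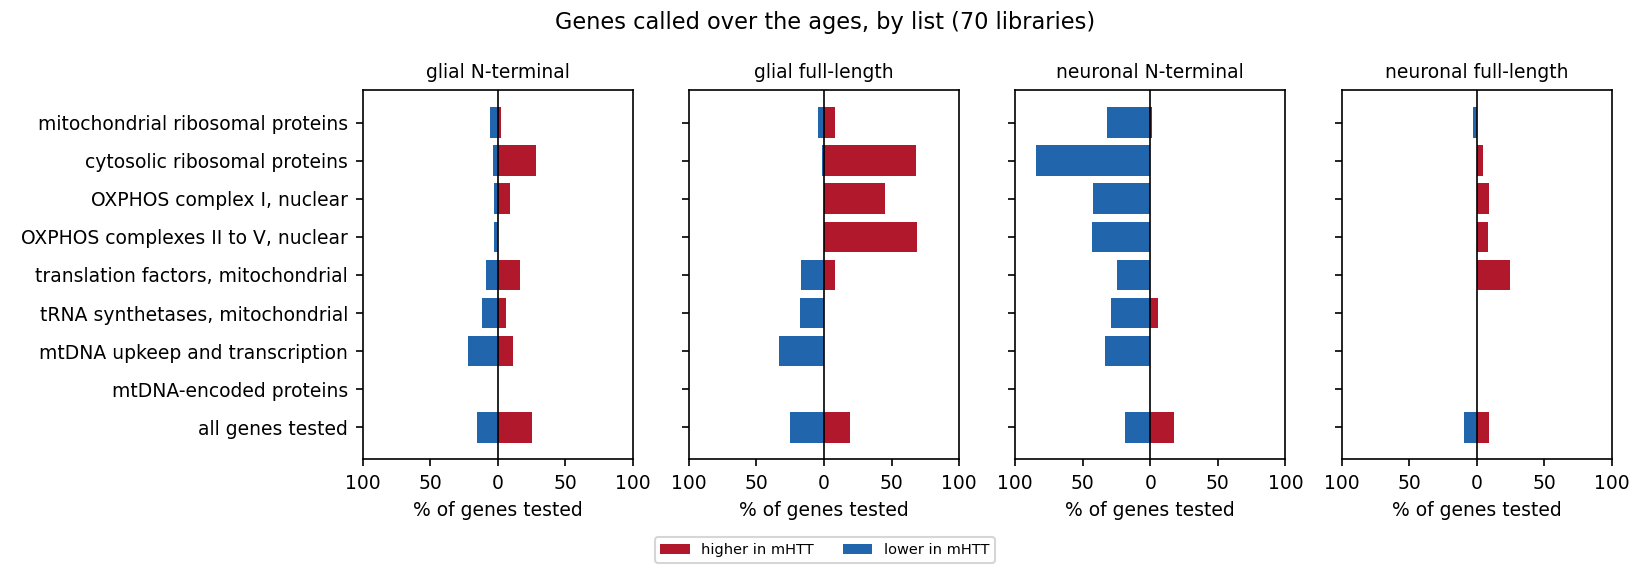
Percentage of the tested genes of each list called higher (right of 0, red) or lower (left of 0, blue) in mHTT over the ages, by model, with the 70 libraries; the last row gives all genes tested. The mitochondrial ribosomal proteins have 6 of 72 higher and 3 lower in the glial full-length panel, where cytosolic ribosomal proteins have 58 of 85 higher, and 23 of 72 lower in the neuronal N-terminal panel.

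Correlations between members were taken over libraries once group means were removed. With all 72 libraries the median correlation over pairs of members was 0.87, and with the 70 it was 0.23, with 85.1% of pairs above 0. These are correlations over libraries that share depth and scaling, and they are given as a description. No such correlation is given for other genes of like level or length, so nothing particular to the members is read from them. mRpS5 ran against the others, with a correlation of −0.92 with their mean over all 72 libraries and −0.46 over the 70.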

How the data were processed

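The deposited table holds normalized signal for 13557 genes in 72 libraries of poly(A)-selected, stranded head RNA. Per the submitters' processing notes, the authors used CASAVA 1.8.2, Bowtie 0.12.0, RSEM 1.1.19 and DESeq2 with the dm3 build. Per the values, the authors' deposited signal has an upper quartile of 1000 in every library. Between 92.1% and 95.5% of low values (up to 20 reads) were whole reads within 0.02. The values were not treated as counts because they are normalized signal. Library depth was estimated from the smallest step between values.

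Genes that reached 10 in 3 or more libraries were tested by limma 3.58.1 (R 4.3.3) on log2(value + 1), with 1 mean per group, a variance trend and Benjamini-Hochberg adjustment over all genes tested (called under 0.05). Each model was fitted on its own 18 libraries; differences between models and between control ages came from 1 fit of all 72. The 2 libraries with a length trend were left out in a second set of fits. Transcript lengths and overlapping genes came from the Ensembl annotation of BDGP6.54, so no coordinates are given.

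The members and lists were chosen with earlier results of these data known. Genes named by rule were, per model, up to 3 called members in each direction and the members of highest and lowest change, up to 2 per direction in differences between models, mRpL12, mRpL1, mRpL4 and mRpS5, and subunits with other symbols. Others were named after their values were seen.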

Additional observations from a re-analysis of the deposited data

Results flagged for a closer look

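Of the members whose change differed between models by the test of the difference itself, with all 72 libraries, 4 are given here, at most 2 per direction of each difference. The mRpS35 change in neuronal N-terminal heads was lower than in glial N-terminal heads (difference −0.70) and lower than in neuronal full-length heads (difference −0.79). The mRpL32 change was lower in neuronal than in glial N-terminal heads (difference −0.56, adjusted p = 0.0232, and −0.24 with the 70 libraries, adjusted p = 0.0208). The mRpS31 change was smaller in glial N-terminal than in glial full-length heads (difference 0.42). The mRpS9 change was lower in neuronal N-terminal than in neuronal full-length heads (difference −0.32, and −0.18 without the day 11 control library with the length trend). Without the first glial N-terminal library of day 7, the neuronal against glial differences of mRpS35 and mRpL32 were not called (adjusted p = 0.0508 and 0.0563). The mRpS9 difference was lost in 26 of the 72 fits without 1 library, with adjusted p up to 0.0744.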

How the results depend on the processing

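The limits of these results are the spread between 3 libraries of a group and the 2 libraries with a length trend. Main counts of called members were 0, 1, 0 and 2 (glial N-terminal at its 3 ages, then over the ages), 6, 2, 7 and 9 (glial full-length), 0, 0, 1 and 1 (neuronal N-terminal) and 1, 1, 1 and 2 (neuronal full-length). They were 16 and 0 (neuronal against glial, N-terminal and full-length), 1 and 3 (N-terminal against full-length, glial and neuronal) and 3 and 11 (older controls, glial and neuronal). No change of a named gene that was called with all libraries turned its sign. Without the 2 libraries the called members at day 7 of glial N-terminal heads went over to 0 higher and 3 lower, against 1 higher and 0 lower, and those between forms in glia to 2 higher and 8 lower, against 1 higher and 0 lower. The member median changed sign at that day (−0.04, against 0.20), over the ages in glial N-terminal heads (−0.01, against 0.08), between forms in glia (−0.02, against 0.06) and in older neuronal controls (0.01, against −0.24). The counts given next are those that moved by more than 1.5 times; the cause was not tested.

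Without the 2 libraries the counts were 5, 3, 3 and 6 in glial N-terminal and 2, 6, 11 and 24 in neuronal N-terminal heads, 10 and 7 between drivers, 10 and 18 between forms, and 18 in older glial controls. Without the farthest library of each model the first 8 counts were the same, and there were 3 at day 18, 3 at day 20 and 5 over the ages in neuronal full-length heads, 12 for drivers with full-length mHTT, 12 and 12 between forms, and 23 in older glial controls. With all 72 libraries in 1 fit there were 0 at day 7 and 0 over the ages (glial N-terminal), 1, 0, 1 and 3 (glial full-length), 69 at day 11 and 39 over the ages (neuronal N-terminal), and 0, 0, 0 and 0 (neuronal full-length). With the label prefix as a covariate there were 1 at day 8 and 1 over the ages (glial N-terminal), 4 at day 20 (glial full-length), 6, 14, 16 and 34 (neuronal N-terminal), 0 at day 20 and 2 at day 22 (neuronal full-length), 1 between drivers with full-length mHTT, 6 and 6 between forms, and 9 in older glial controls. The day 11 control library with the length trend is the only library with the prefix V31614. That covariate therefore takes its values out of the neuronal N-terminal fit and of the fit of all libraries. With a length correction there were 1, 3, 1 and 4 (glial N-terminal), 9 at day 11 and 6 over the ages (neuronal N-terminal) and 0 at day 18 (neuronal full-length), and glial full-length heads had 4 higher and 9 lower.

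Median-ratio rescaling gave 1 at day 8 and 1 over the ages (glial N-terminal), 1 at day 20 (glial full-length, with 10 higher and 3 lower over the ages), 0 at day 11 and 0 over the ages (neuronal N-terminal), 1 over the ages (neuronal full-length), 5 between drivers with N-terminal mHTT and 2 between forms in glia. Quantile normalization gave 1 at day 8 (glial N-terminal), 2 at day 22 and 1 over the ages (neuronal full-length), 10 between drivers with N-terminal mHTT, 2 and 7 between forms, and 24 in older neuronal controls. No filter gave 0 at day 7 (glial N-terminal) and 1 over the ages (neuronal full-length), and a pseudocount of 10 gave 2 at day 20 in neuronal full-length heads. The 6 libraries of an age alone gave 6, 0 and 1 (glial N-terminal), 1 at day 22 (glial full-length), 1, 5 and 0 (neuronal N-terminal) and 2, 4 and 0 (neuronal full-length).

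Deviations of same-numbered libraries had correlations of mixed sign. In glial heads r ran from −0.45 to 0.29 (N-terminal) and from −0.37 to 0.47 (full-length). In neuronal heads it ran from −0.21 to 0.03 (N-terminal) and from −0.55 to 0.36 (full-length). It was over 0.1 in 2 of 9 pairs in each glial model, 1 in neuronal full-length and 0 in neuronal N-terminal heads. The replicate block gave 1 at day 20 (glial full-length), 0 at day 11 and 0 over the ages (neuronal N-terminal) and 1 over the ages (neuronal full-length), and mRpS30 and mRpL18 lost their calls (adjusted p = 0.0565 and 0.0669).

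Leaving out each library in turn gave 0 to 5, 0 to 6, 0 to 3 and 1 to 6 (glial N-terminal), 3 to 7, 1 to 3, 3 to 9 and 7 to 13 (glial full-length), 0 to 2, 0 to 6, 0 to 68 and 0 to 24 (neuronal N-terminal), 0 to 3, 0 to 3, 0 to 5 and 1 to 5 (neuronal full-length), 3 to 63 and 0 to 1 between drivers, 1 to 7 and 2 to 48 between forms, and 1 to 10 and 6 to 55 in older controls. The 68 came without the third control library of neuronal day 11, which leaves the library with the length trend as 1 of 2. The mRpS31 change ranged from −0.51 to −0.49 (glial full-length) and from −0.23 to −0.20 (neuronal full-length), with every adjusted p under the threshold. It was not called in neuronal full-length heads with all 72 libraries in 1 fit (adjusted p = 0.162).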

Other observations

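Of 7 mitochondrial chaperones and proteases, 2 were higher and 1 lower in glial full-length heads, 3 higher in glial N-terminal heads, 3 lower in neuronal N-terminal heads and 0 called in neuronal full-length heads, with the 70 libraries. The shares of all genes called in those fits were 44.4%, 40.2%, 36.8% and 18.9%. The matrix heat shock protein gene Hsp22 changed by −1.30 in glial full-length and by 1.20 in glial N-terminal heads. Of 8 regulators tied to mitochondrial genes, 1 was higher and 3 lower in glial full-length heads, among them dm (the Myc homologue, −0.42) and Thor (the 4E-BP homologue, 0.23), and 3 were higher in neuronal N-terminal heads, among them dm (0.27). These genes were named after their values were seen.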
